A study of Mus musculus with 30 samples.

Results

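Chromatin accessibility was compared between definitive endoderm (DE) and the epiblast stem cells (EpiSCs) it was made from, both of the mouse strain C57BL/6 (B6). The comparison takes every B6 library of the deposited ATAC-seq table that holds both states, 4 of DE and 4 of EpiSCs, which are 8 of the 30 samples of the series and 8 of its 11 ATAC-seq samples. ATAC-seq cuts open DNA with the transposase Tn5, and the number of fragments over a region measures how accessible that region is. The table lists 158917 peaks in 1 common set for all 8 libraries, and 113870 of them had enough counts to be tested.

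EpiSCs stand for the epiblast just before and during gastrulation: they are primed, still pluripotent, and depend on Activin or Nodal and on FGF signals. In the embryo, epiblast cells pass through the primitive streak under Nodal and Wnt signals and leave it as mesoderm or as definitive endoderm, the source of the lining of the gut and of organs such as liver and pancreas. The state of a cell is written in which promoters and enhancers are open. Factors such as EOMES, the FOXA proteins, the GATA proteins and SOX17 bind enhancers of endoderm genes, while OCT4 (gene Pou5f1), SOX2 and NANOG hold open the enhancers of pluripotent cells.

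Per the labels, the EpiSC group was cultured over a feeder layer with Fgf2, ActivinA and NVP-TNKS656, which inhibits Wnt signalling, and was lifted with collagenase to leave feeders behind. For the DE group, EpiSCs received CHIR99201 (named so in the labels) with ActivinA for 16 h, then ActivinA with LDN193189, a BMP receptor inhibitor, for 24 h, against a stated total of 46 h. Only the DE cells were sorted, with magnetic beads against CXCR4, so sort and state cannot be told apart. Cells of passage 5 to 10 were used in both groups. The replicates carry BioRep numbers, 1, 4, 44 and 51 for EpiSCs and 2, 4, 44 and 51 for DE. Whether these are separate cell lines or cultures is not said, so a p-value measures the spread between these samples.

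The labels were checked against marker genes in the RNA-seq libraries of the same 2 states (5 EpiSC, 4 DE). The summed level of Sox17, Foxa2, Gata6, Cxcr4 and Cer1 was 5170 to 11600 CPM (counts scaled to libraries of equal size) in DE and 25.1 to 262 CPM in EpiSCs, and 5 of 5 rose. Of the EpiSC markers, Pou5f1, Sox2, Nanog and Zic2 fell, while Fgf5, a growth factor of the epiblast, rose. Their sum, 1370 to 1950 CPM in EpiSCs and 1490 to 1730 CPM in DE, did not separate the states. The mesoderm markers T, Tbx6, Mesp1, Kdr and Hand1 summed to 103 to 553 CPM in EpiSCs and 4.07 to 21.2 CPM in DE. The feeder fibroblast markers Col1a1, Col1a2, Thy1, Postn and Twist2 summed to 38.7 to 1850 CPM in EpiSCs, highest in replicate 51 (the next had 669 CPM), and to 38.8 to 137 CPM in DE. The visceral endoderm markers Ttr, Afp, Amn, Apob and Cubn summed to at most 4.93 CPM in any library, with Ttr at 0 in every EpiSC library. The neuroectoderm markers Sox1, Pax6, Sox21, Six3 and Lhx2 summed to 3.35 to 22.9 CPM in EpiSCs and 58.6 to 68.4 CPM in DE. Of the 3 of them tested, Sox21 rose by 4.79, while Pax6 (-1.96) and Six3 (0.97) did not pass the test. The part of other cells in the accessibility results was not tested.

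Among 28 named genes, described with their values further on, the promoters that changed most and have a start at hand are shown here. Each is given as 300 bases from 250 before to 50 after the start, 5′ to 3′ along the gene, from RefSeq on build GRCm38.p6. They are the ones whose peak was called, changed at least 2-fold and meets the window. Lefty1, with the largest change of all (3.19), and Gata6 (1.07) were taken by either end and have no such window. Capitals mark matches to 1 of 16 short factor words listed with the motif results. Cer1 lies at chr4:82885102-82885401, Cxcr4 at chr1:128592250-128592549, Foxa1 at chr12:57546062-57546361, Gsc at chr12:104473187-104473486 and Lhx1 at chr11:84525485-84525784, all on the minus strand. Nanog, the one that closed in DE, lies at chr6:122707239-122707538 on the plus strand. The window of another annotated Nanog start, chr6:122707315-122707614, holds the same words and is not shown.
Cer1: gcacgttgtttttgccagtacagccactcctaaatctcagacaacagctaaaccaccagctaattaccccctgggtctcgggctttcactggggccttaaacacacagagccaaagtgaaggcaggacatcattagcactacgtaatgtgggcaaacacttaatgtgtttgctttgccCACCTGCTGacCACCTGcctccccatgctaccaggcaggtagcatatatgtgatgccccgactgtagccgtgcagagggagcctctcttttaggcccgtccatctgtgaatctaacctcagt
Cxcr4: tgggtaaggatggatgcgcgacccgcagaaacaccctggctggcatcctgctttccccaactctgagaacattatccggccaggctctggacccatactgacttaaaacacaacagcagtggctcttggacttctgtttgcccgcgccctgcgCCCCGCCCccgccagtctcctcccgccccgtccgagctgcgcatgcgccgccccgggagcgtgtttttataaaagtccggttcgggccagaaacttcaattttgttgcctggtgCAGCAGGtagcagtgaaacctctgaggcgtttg
Foxa1: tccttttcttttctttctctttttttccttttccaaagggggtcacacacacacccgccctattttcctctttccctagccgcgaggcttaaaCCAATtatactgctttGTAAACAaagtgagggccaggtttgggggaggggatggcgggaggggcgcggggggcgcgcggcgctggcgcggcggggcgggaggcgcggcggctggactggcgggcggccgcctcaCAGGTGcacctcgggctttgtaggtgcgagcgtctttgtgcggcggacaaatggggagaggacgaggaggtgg
Gsc: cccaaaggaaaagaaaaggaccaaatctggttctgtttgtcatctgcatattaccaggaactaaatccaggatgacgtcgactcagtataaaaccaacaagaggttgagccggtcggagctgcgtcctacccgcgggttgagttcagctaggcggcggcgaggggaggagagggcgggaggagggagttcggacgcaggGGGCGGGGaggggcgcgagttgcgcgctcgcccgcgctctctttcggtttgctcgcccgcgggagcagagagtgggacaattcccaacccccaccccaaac
Lhx1: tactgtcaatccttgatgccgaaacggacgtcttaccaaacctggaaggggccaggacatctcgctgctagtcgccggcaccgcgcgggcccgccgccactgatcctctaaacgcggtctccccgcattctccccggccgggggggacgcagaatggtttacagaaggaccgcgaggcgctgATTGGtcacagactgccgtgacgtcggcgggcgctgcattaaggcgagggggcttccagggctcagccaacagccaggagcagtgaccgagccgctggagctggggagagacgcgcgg
Nanog: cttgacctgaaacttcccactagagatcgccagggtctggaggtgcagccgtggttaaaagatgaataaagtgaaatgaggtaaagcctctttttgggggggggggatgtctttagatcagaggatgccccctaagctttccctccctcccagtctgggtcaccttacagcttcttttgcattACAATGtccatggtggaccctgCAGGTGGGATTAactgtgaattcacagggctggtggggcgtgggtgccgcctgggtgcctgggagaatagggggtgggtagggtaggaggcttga

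In these windows, the Cer1 capitals hold 2 SNAI and ZEB words, 1 of which overlaps a ZIC word. The Foxa1 window holds an NF-Y word, a FOXA word at base -141 from the start and a SNAI and ZEB word. In the Nanog window a SOX word stands at base -67 from the start (-143 from the other annotated start). A SNAI and ZEB word there is followed directly by an OTX and GSC word. The Cxcr4 window has an SP and KLF word and a ZIC word, Gsc an SP and KLF word, and Lhx1 an NF-Y word. A match is a run of letters, not a shown binding site.

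The libraries held 3751526 to 9311622 counts in peaks. Replicates of a state correlated at 0.852 to 0.920 over peaks (log2 CPM), against 0.216 to 0.435 between states, and the first principal component, with 78.6% of the variance, separated the states. EpiSC replicate 4 lay nearer to DE than its group did. Its correlations with DE libraries were 0.385 to 0.435, against 0.216 to 0.317 for the other EpiSC libraries. Over the peaks that a fit without it called at least 2-fold higher in DE, it stood 21.8% of the way from the other EpiSC libraries to DE, and 12.6% over the lower ones. EpiSC replicate 51 stood at -17.0% over the higher peaks, and the DE libraries at 88.2% to 107%. In the RNA-seq library with the number 4, the endoderm markers summed to 221 CPM and the EpiSC markers to 1370 CPM, the lowest of the 5. In DE the EpiSC markers summed to 1490 to 1730 CPM, so that sum does not place a library between the states. The highest endoderm sum, 262 CPM, was in EpiSC replicate 1, which stood at 4.46% over the higher peaks. Without EpiSC replicate 4, 40315 peaks were higher and 31190 lower in DE. On chromosome 8, the median shift of DE replicate 51 from the mean of the other DE libraries was 0.45 on the log2 scale. For each other DE library it was -0.16 to -0.12, where replicate 51 is part of the mean compared with.

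**Figure D1:**
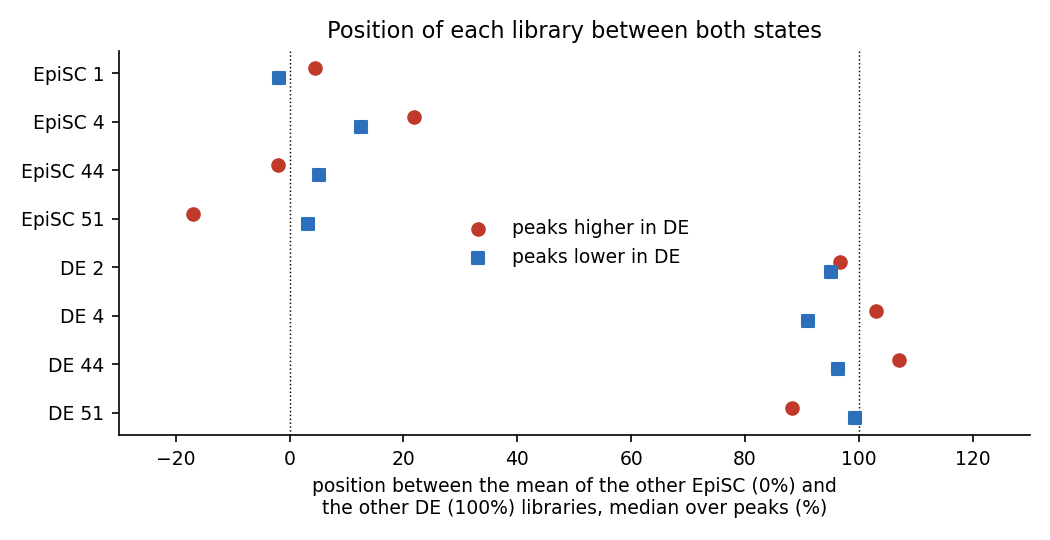
Position of each of the 8 libraries (rows) on a scale from the mean of the other EpiSC libraries (0%) to the mean of the other DE libraries (100%), as the median over peaks called at least 2-fold higher (circles) or lower (squares) in a fit without that library. EpiSC replicate 4 lies at 21.8% and 12.6%, and EpiSC replicate 51 at -17.0% over the higher peaks.

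The comparison asked which regions open and close as EpiSCs become endoderm. Of the 113870 peaks tested, 65604 were called at an adjusted p under 0.05 (quasi-likelihood test of edgeR, Benjamini-Hochberg), a share of 57.6%. Those higher in DE made up 32.6% and those lower made up 25.0%. In bulk samples, fewer cells with an open region and less opening per cell cannot be told apart. Openings were larger than closings: the median log2 change of the called peaks was 2.43 for the higher and -1.76 for the lower ones. Of the higher peaks, 62.2% changed at least 4-fold, and 43.0% of the lower ones. At 32-fold the order was the other way round, at 1.54% for openings and 3.43% for closings. In 1182 of the higher peaks, EpiSCs were at the floor of 3 counts or fewer in each library, and in 2913 of the lower peaks DE was, and for these the fitted change depends on the prior count.

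The size of that balance depends on scaling. With total library size in place of TMM, the median log2 change of all peaks moved from -0.01 to -0.22 and the share of higher among called peaks from 56.6% to 47.6%. Without DE replicate 2 that share was 49.6% and without chromosome 8 it was 50.2%. No peak called in both the TMM fit and 1 of these fits changed direction.

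Wide peaks opened more often than narrow ones. In the widest of 5 classes of like size (268 to 4590 bp) 45.9% were higher and 16.2% lower in DE, and in the narrowest (64 to 111 bp) 16.6% were higher and 24.6% lower. Called higher peaks had a median width of 205 bp and called lower peaks of 163 bp, against 172 bp over all tested. By mean accessibility, the share of lower peaks went from 32.0% in the weakest of 5 classes to 17.2% in the strongest, and the share of higher peaks ranged from 27.7% to 35.9%.

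Position relative to genes separated the peaks further. A promoter peak is here one within 1 kb of an annotated start. Of 23600 promoter peaks, 15.6% were higher and 15.7% lower in DE. In gene bodies the shares were 37.7% and 26.4% of 53193, and between genes 36.0% and 29.0% of 37066. Peaks that hold a start were called least often, 25.5%, with a median log2 change of 0.72 among the higher ones. The share called was 36.1% within 1 kb, 58.0% at 1 to 5 kb, 63.3% at 5 to 20 kb, 66.2% at 20 to 50 kb, 67.9% at 50 to 100 kb and 69.5% beyond 100 kb. Peaks that hold a start were also wider (median 289 bp) and stronger (16.3 CPM) than those beyond 100 kb (173 bp, 3.97 CPM). The even split at promoters did not hold in most other fits. With total library size 2405 promoter peaks were higher and 6223 lower, with loess offsets 2678 and 5869, against 3687 and 3713 with TMM. With TMM kept, more promoter peaks were lower than higher without any 1 of the 8 libraries, from 3047 higher and 3740 lower without DE replicate 44 to 2657 and 5821 without EpiSC replicate 51. The same was seen without chromosome 8 (2563 and 5286) and without mitochondrial, sex chromosome and unplaced peaks (2881 and 4741). With at least 10 counts in every library there were 2257 higher and 2090 lower.

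**Figure D2:**
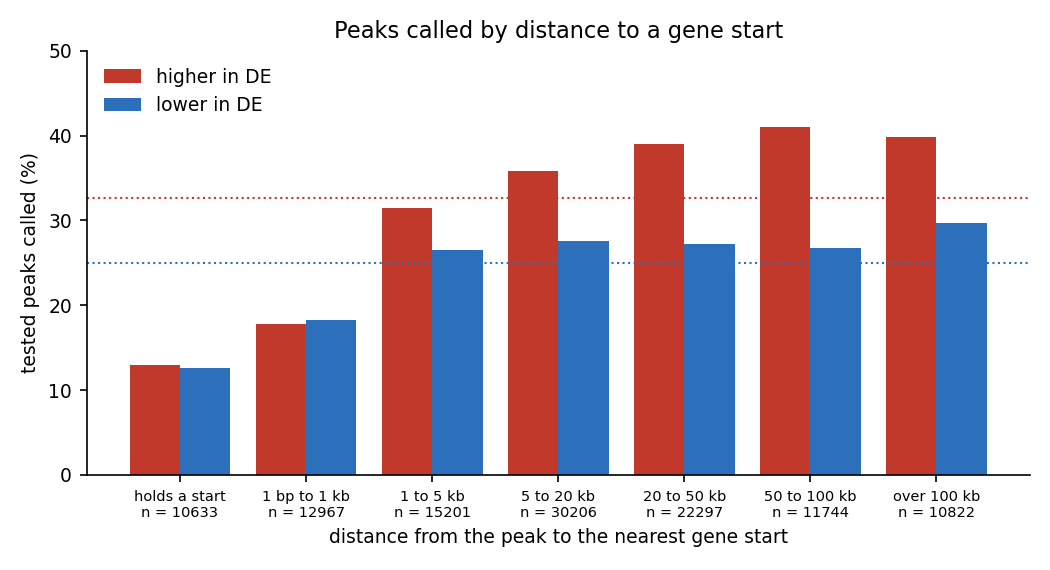
Share of tested peaks called higher (red) or lower (blue) in DE, in percent, by distance from the peak to the nearest gene start, with the number of peaks tested under each pair of bars and dotted lines at the shares over all peaks (32.6% and 25.0%). Peaks that hold a start were called higher in 13.0% and lower in 12.6%, and peaks over 100 kb away in 39.8% and 29.7%.

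The share of all counts that fell in promoter peaks was 33.3%, 35.2%, 31.7% and 36.3% in EpiSC replicates 1, 4, 44 and 51. It was 31.8%, 29.3%, 29.9% and 31.2% in DE replicates 2, 4, 44 and 51, and the groups overlapped. Gene body peaks took 37.7% ± 1.42 (SD, n = 4) of DE counts and 33.7% ± 0.746 (SD, n = 4) of EpiSC counts, with no overlap. The exact permutation test over the libraries gave p = 0.0286 for gene bodies, the smallest that 4 against 4 allows, and 0.0715 after adjustment over 5 classes. Mitochondrial peaks, which took 4.39% to 13.6% of the counts of a library, move these shares. With nuclear peaks alone in the total, promoters took 32.8% ± 1.34 (SD, n = 4) in DE and 37.5% ± 1.09 (SD, n = 4) in EpiSCs, without overlap (exact permutation test, adjusted p = 0.0286 over 4 classes). Peaks on the X chromosome took 1.71% ± 0.0273 of nuclear counts in DE and 1.87% ± 0.120 in EpiSCs (SD, n = 4 each).

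Promoters with few CpG sites changed more often. CpG content is given as observed over expected, where 1 means as many CpG pairs as the C and G content predicts. Of the 32815 RefSeq promoter windows, 13437 were met by a peak. These were 11159 peaks, and with 1 window per peak 13.8% were higher and 13.6% lower. Below a CpG ratio of 0.25, 31.5% of 956 were higher and 30.0% lower. From 0.75 to 1, 12.4% of 4161 were higher and 6.87% lower. The windows of lower peaks had a median ratio of 0.506 and 55.3% GC, those of higher peaks 0.692 and 62.7%, and those not called 0.774 and 61.7%. Peaks below a ratio of 0.25 were also weaker, with a median of 6.43 CPM against 17.3 CPM from 0.75 to 1.

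The words of endoderm and pluripotency factors were not spread evenly over these windows. Each word was searched on both strands, and a SNAI and ZEB word can share bases with a T-box or ZIC word. Shares of all windows are over the 32815, and the other shares are over 1 window per peak. The GATA word AGATAA, found in 11.2% of all windows, stood in 10.7% of 1536 windows with a higher peak, in 5.44% of 8105 not called and in 6.32% of 1518 with a lower peak. Among windows with a CpG ratio under 0.5 the shares were 23.2%, 10.7% and 7.24%. The OTX and GSC word GGATTA (7.06% of all windows) stood in 9.24% with a higher peak, 5.19% not called and 6.59% with a lower peak. OTX2 and GSC are homeobox factors of the anterior streak and endoderm. The SNAI and ZEB word CAGGTG (20.2% of all) stood in 27.5%, 18.0% and 16.5%, and the SOX word ACAATG (12.6% of all) in 9.38%, 6.67% and 8.89%.

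The OCT and AP-1 words were most frequent with lower peaks. The OCT word ATGCAAAT (1.74% of all windows) stood in 3.36% with a lower peak, 1.46% not called and 1.63% with a higher peak. The AP-1 word TGANTCA (7.81% of all) stood in 10.0%, 4.32% and 6.05% in that order. AP-1 is the FOS and JUN dimer, also known for open chromatin of fibroblasts. The SP and KLF word GGGCGGGG (17.6% of all), typical of CpG-rich promoters, stood in 18.6% with a lower peak, 35.7% not called and 39.1% with a higher peak. Among windows with a CpG ratio under 0.5 its shares were 9.25%, 18.5% and 8.38%, with no excess in either direction. The FOXA word TGTTTAC (3.65% of all) stood in 4.02% with a lower peak and 3.45% with a higher peak, against 2.53% not called. Under a ratio of 0.5 the order turned, with 4.56% for lower peaks, 6.29% for higher peaks and 3.61% not called. In those windows the OCT word stood in 4.69% with a lower and 1.71% with a higher peak, and the AP-1 word in 15.5% and 11.2%. Words for T-box AGGTGTGA (1.27% of all), ZIC CAGCAGG (10.5%), TEAD GGAATG (14.7%), CTCF AGGGGGCGC (1.24%), TCF and LEF CTTTGAA (5.14%) and NF-Y CCAAT (37.4%) were also counted. Their shares with a higher and a lower peak were 1.17% and 1.71% for T-box, 14.8% and 13.0% for ZIC, 11.6% and 16.2% for TEAD and 2.08% and 1.78% for CTCF. They were 3.32% and 3.95% for TCF and LEF, and 34.2% and 41.8% for NF-Y. The HNF1 word GTTAATNAT (0.801% of all) stood in 7 windows with a higher and 1 with a lower peak, and the HNF4 word CAAAGTCCA (0.475% of all) in 8 and 4. These are counts with no test, and every share rests on the same fit.

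At the starts of endoderm genes, accessibility rose for Cer1, Cxcr4, Foxa1, Gsc, Lhx1, Gata6, Hhex and Sox17, and Eomes, Foxa2, Mixl1 and Otx2 were not called. A peak lay within 1 kb of the start, or for genes whose strand is not at hand of either end, in 26 of 28 named genes. Of these, 12 were higher, 3 lower and 11 not called, where 15.6% of all promoter peaks were higher and 15.7% lower (32.6% and 25.0% of all peaks). In 15 the range of DE lay clear of that of EpiSCs (over all tested peaks 53.8%, made up of 30.4% with DE above and 23.4% with DE below). That share was not worked out for promoter peaks alone, which were called less often than all peaks (31.4% against 57.6%). The values below are in CPM, in the order of EpiSC replicates 1, 4, 44 and 51 and of DE replicates 2, 4, 44 and 51.

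Cer1 encodes a secreted antagonist of Nodal, BMP and Wnt. The peak on its start (chr4:82885029-82885394) had 7.68, 7.41, 5.36 and 2.32 CPM in EpiSCs and 50.6, 44.3, 46.9 and 36.6 CPM in DE. Every DE library lay above every EpiSC library, and the log2 change was 2.95 (SE 0.25, edgeR adjusted p = 9.32e-09). Cxcr4, the chemokine receptor used in the sort, had a narrow peak at its start (chr1:128592188-128592280) with 1.76, 1.80, 0.510 and 0.930 CPM in EpiSCs and 6.79, 9.05, 9.73 and 6.34 CPM in DE. That peak rose by 2.58 (SE 0.39, edgeR adjusted p = 9.47e-06) on 37 counts in EpiSCs and 178 in DE. Foxa1, a pioneer factor that can bind closed chromatin, had 3.04, 5.81, 3.83 and 4.18 CPM in EpiSCs and 21.4, 15.1, 18.0 and 17.3 CPM in DE at chr12:57545994-57546158. The groups did not overlap, with a rise of 2.05 (SE 0.26, edgeR adjusted p = 1.04e-06).

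Gsc, the homeobox gene of the organizer, had 5.92, 6.21, 5.87 and 7.59 CPM in EpiSCs and 19.6, 18.3, 18.0 and 20.8 CPM in DE (chr12:104473249-104473462), a rise of 1.57 (SE 0.22, edgeR adjusted p = 3.59e-06). Lhx1, a partner of OTX2 and FOXA2 in the anterior endoderm, went from 15.6 to 19.2 CPM in EpiSCs to 37.2 to 46.4 CPM in DE. Gata6 and Hhex, which act in early endoderm and the foregut, rose by 1.07 (SE 0.15) and 0.95 (SE 0.19) with no overlap of the groups. Sox17, the endoderm SOX factor, rose by 0.85 (SE 0.26, edgeR adjusted p = 0.00888) at a peak within 1 kb of an end, and had an adjusted p of 0.0512 with total library size. Lefty1, a feedback inhibitor of Nodal, had a peak at an end (chr1:180934457-180935191) with 8.32, 11.0, 16.8 and 18.9 CPM in EpiSCs and 118, 147, 118 and 115 CPM in DE. The fitted rise on the log2 scale was 3.19 (SE 0.19, edgeR adjusted p = 3.66e-10).

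Several endoderm genes had no called change at the start while their transcript rose. The peak at Eomes, the T-box factor that starts the endoderm program, had 5.60 to 9.30 CPM in EpiSCs and 7.50 to 11.4 CPM in DE, a log2 change of 0.29 (SE 0.27). Its transcript rose by 1.40 (edgeR adjusted p = 0.00391). Foxa2 had 1.79 to 4.96 CPM and 2.43 to 8.36 CPM at its start, a log2 change of 0.49 (SE 0.43), with a transcript rise of 1.47. Its peak was 88 bp wide, with 97 counts in each state. Mixl1 had a log2 change of -0.55 (SE 0.37) at an end and a transcript rise of 3.88. Without DE replicate 2 the Mixl1 peak was called, at -0.96. Otx2 had 0.94 (SE 0.52), with groups that did not overlap but an edgeR adjusted p of 0.126. Its peak was 75 bp wide, with 56 counts in EpiSCs and 79 in DE. No tested peak lay within 1 kb of either end of Gata4, a zinc finger factor of early endoderm.

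Among pluripotency genes, the start of Nanog closed most. Its peak (chr6:122707400-122707597) had 11.0, 9.11, 6.89 and 17.4 CPM in EpiSCs and 4.32, 1.32, 3.58 and 1.15 CPM in DE. The highest DE library lay below the lowest EpiSC library, and the log2 change was -2.06 (SE 0.39, edgeR adjusted p = 0.000119). The start of Sox2 had 9.12, 9.62, 13.0 and 15.3 CPM in EpiSCs and 4.73, 6.91, 5.72 and 7.78 CPM in DE, a change of -0.91 (SE 0.27, edgeR adjusted p = 0.00686). Utf1, a chromatin protein of pluripotent cells, changed by -0.78 (SE 0.21), also without overlap. The transcripts of Nanog, Sox2 and Utf1 changed by -3.05, -6.21 and -3.90 on the log2 scale.

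Lin28a went the other way at its start, and Pou5f1 at 2 peaks inside the gene. Of the 18 tested peaks in and within 50 kb of Pou5f1, 5 were higher and 7 lower, with log2 changes from -3.17 to 3.43. The Pou5f1 peak nearest an annotated start, 573 bp from an internal one, had 3.51 to 8.42 CPM in EpiSCs and 7.41 to 11.7 CPM in DE. Its rise of 0.93 (SE 0.31, edgeR adjusted p = 0.0143) was lost without EpiSC replicate 1, 4 or 51 or DE replicate 2, with adjusted p from 0.0608 to 0.0960, and with the replicate block (0.68, edgeR adjusted p = 0.173). A wider peak 0.915 kb from the first start of the gene (chr17:35506947-35507419) had 2.01 to 5.61 CPM in EpiSCs and 29.1 to 44.2 CPM in DE, a rise of 3.43 (SE 0.26, edgeR adjusted p = 1.76e-09). The transcript of Pou5f1 fell from 1130 to 12.9 CPM. Lin28a, an RNA-binding protein that blocks let-7, had 9.44 to 11.8 CPM in EpiSCs and 11.9 to 18.1 CPM in DE, a change of 0.53 (SE 0.22, edgeR adjusted p = 0.0463). That call was lost with RLE size factors, total library size, DESeq2 and without any 1 library but DE replicate 44, with adjusted p from 0.0614 to 0.272, and with the replicate block (0.38, edgeR adjusted p = 0.294). Fgf5 rose at its start, from 12.2 to 16.4 CPM up to 24.3 to 26.8 CPM, by 0.87 (SE 0.18, edgeR adjusted p = 0.000267), and its transcript rose too. The starts of Zic2, Sall4, Dnmt3b, T, Nodal and Axin2 were not called, with log2 changes from -0.86 for T to 0.10 for Dnmt3b. The Nodal start, at -0.57 (SE 0.26), was called lower with RLE size factors (-0.63), total library size (-0.79), DESeq2 (-0.62) and without 4 of the single libraries. The T start was called with total library size (-1.07), and without EpiSC replicate 44 or 51 or DE replicate 2 (-1.29 to -1.03). Zic2 was called with total library size and without EpiSC replicate 51.

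**Figure D3:**
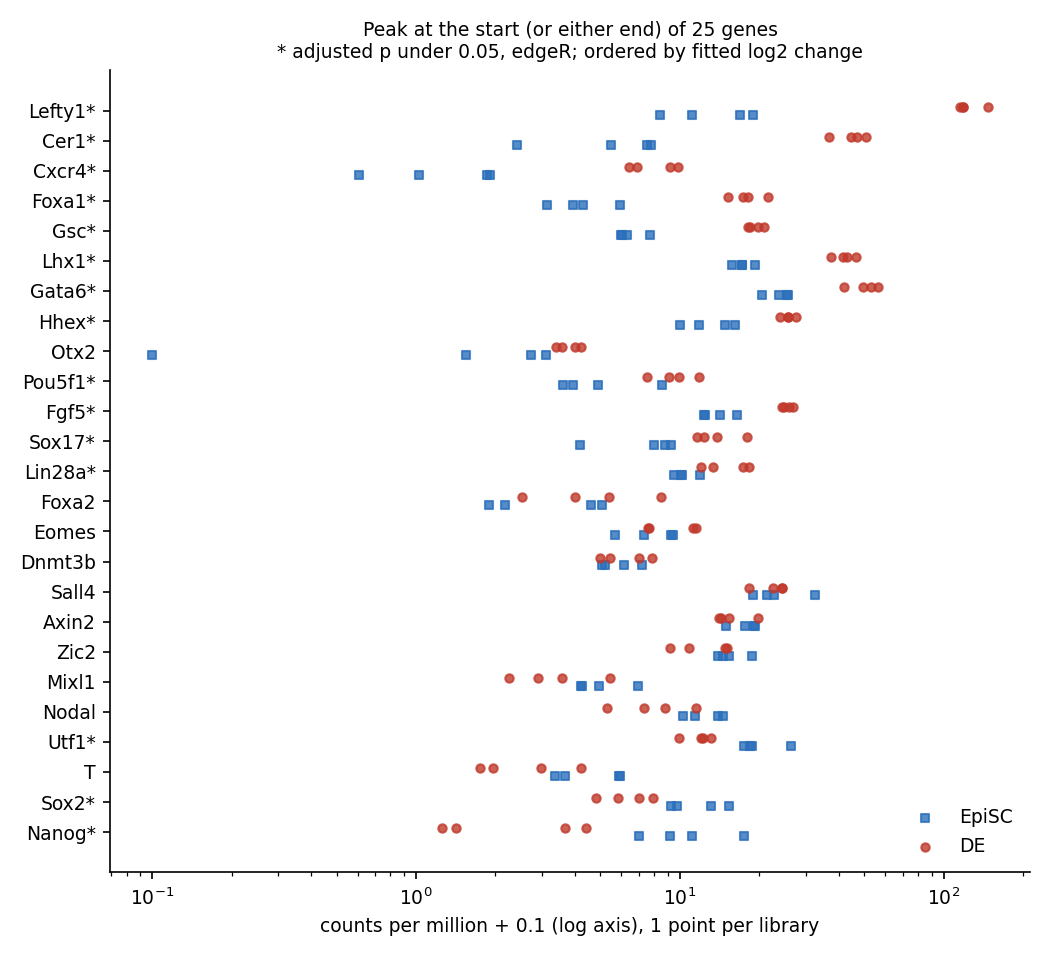
Accessibility in CPM + 0.1 (log axis) of the peak at the start, or either end, of 25 genes (rows, ordered by the fitted log2 change), with 1 square per EpiSC library and 1 circle per DE library, and a star where edgeR's adjusted p is under 0.05. Lefty1 and Cer1 lie at the top with no overlap of the groups, and Nanog and Sox2 at the bottom.

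Peaks in and around the named genes were taken next. The 28 genes had 6 to 26 tested peaks each in the gene or within 50 kb. Over all tested peaks, 32.6% were higher and 25.0% lower. At Cxcr4, 9 of 11 were higher and 0 lower, at Foxa1 10 of 15 and 0, at Lhx1 8 of 10 and 0, and at Gata6 11 of 15 and 1. Gata4 had 9 of 18 and 0, Otx2 8 of 12 and 0, Mixl1 7 of 12 and 0, Sox17 4 of 6 and 1, Hhex 5 of 10 and 1, and Cer1 5 of 10 and 1. Foxa2, with 5 of 16 higher and 2 lower, lay near the share of higher peaks over all tested, with a locus median of 0.51. Eomes, with 5 of 21 and 5, lay below that share, with a median of 0.04. The median over a locus was smaller than the change at the start for Lefty1 (0.07 against 3.19) and Cer1 (1.28 against 2.95). It was also smaller for Cxcr4 (2.27 against 2.58), Foxa1 (1.71 against 2.05), Gsc (1.05 against 1.57) and Hhex (0.54 against 0.95). The median was the larger value for Gata6 (1.66 against 1.07), Lhx1 (1.62 against 1.28) and Sox17 (1.0 against 0.85). The same held for Otx2 (1.23 against 0.94), Mixl1 (1.44 against -0.55) and Fgf5 (1.4 against 0.87). The single peaks that follow are the most significant of each locus, a choice that favours large changes.

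Foxa2, without a called change at its start, had a strongly opened region 18.9 kb away (chr2:148065830-148066269). It had 0, 1.20, 1.02 and 0.310 CPM in EpiSCs and 26.2 to 32.7 CPM in DE, a change of 5.40 (SE 0.38, edgeR adjusted p = 9.41e-10). Near Sox17, 9.31 kb from the gene (chr1:4506734-4507067), the values were 1.28, 5.41, 1.53 and 0.620 CPM in EpiSCs and 38.3, 40.0, 43.8 and 31.4 CPM in DE. EpiSC replicate 4 was the highest EpiSC library in both. Cxcr4 had a region 26.1 kb away (chr1:128561632-128562118) with 3.36, 5.81, 3.32 and 1.70 CPM in EpiSCs and 62.6, 59.1, 56.2 and 54.8 CPM in DE, a change of 3.97 (SE 0.24). The peak on Lhx1os, 4.36 kb from Lhx1, went from 0.510 to 1.80 CPM to 14.1 to 25.0 CPM.

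Eomes differed from these loci. Of its 21 peaks, 5 were higher and 5 lower, and the most significant one, 45.0 kb away (chr9:118432813-118433170), closed. It had 17.0, 15.4, 20.9 and 35.9 CPM in EpiSCs and 1.65, 0.987, 1.72 and 2.31 CPM in DE, a change of -3.77 (SE 0.34, edgeR adjusted p = 1.75e-08). Gsc, with 8 higher and 3 lower peaks of 15, also held both directions, with log2 changes from -4.31 to 3.95. The Nodal locus (8 higher and 5 lower of 21) had its most significant peak among the closing ones. This region 22.9 kb from the gene (chr10:61394797-61395116) had 37.6, 34.9, 34.2 and 28.7 CPM in EpiSCs and 8.85, 10.2, 9.02 and 11.5 CPM in DE, while the Nodal transcript rose by 1.82.

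At the pluripotency loci, closing and opening peaks stood side by side. Sox2 had 7 lower and 2 higher of 14, Pou5f1 7 and 5 of 18, Nanog 10 and 7 of 22, and Utf1 10 and 3 of 26. A region 0.435 kb from Utf1 (chr7:139945547-139945769) went from 19.9 to 31.1 CPM down to 0.577 to 2.06 CPM, a change of -3.96 (SE 0.31). A peak in Sox2ot, 16.1 kb from Sox2 (chr3:34668594-34668757), had 7.36, 4.51, 7.40 and 9.14 CPM in EpiSCs and 0.206, 0.329, 0 and 1.15 CPM in DE, where it rested on 7 counts. The most significant peak of the Nanog window opened. It lies in Slc2a3, a glucose transporter gene 30.3 kb away (chr6:122744909-122745161), with 0.255 to 2.50 CPM in EpiSCs and 15.6 to 22.8 CPM in DE. Lin28a had 11 higher and 1 lower of 21 peaks, while its transcript fell by 2.26. Dnmt3b, a DNA methyltransferase whose transcript did not pass the test (log2 change -0.21, edgeR adjusted p = 0.403), had 6 higher and 5 lower, and its most significant peak, in Commd7 at 23.3 kb, rose by 3.79 (SE 0.25).

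**Figure D4:**
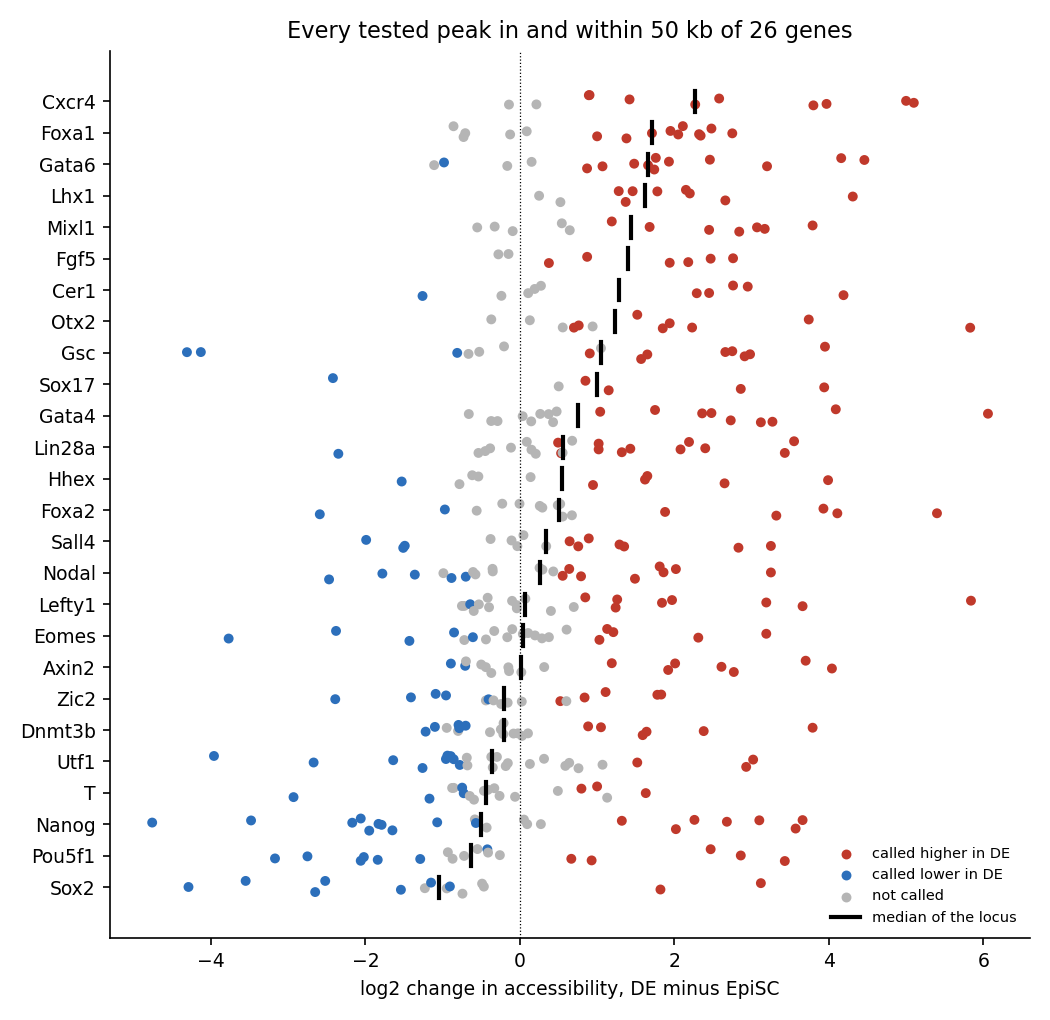
Log2 change in accessibility, DE minus EpiSC, of every tested peak in and within 50 kb of 26 of the 28 genes (rows, ordered by the locus median, black bars), with red for peaks called higher, blue for lower and grey for not called. Cxcr4 has the highest median of those drawn, 2.27, and Sox2 the lowest, -1.05.

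Counted over lists of genes, the definitive endoderm list stood apart from all peaks tested. Of 395 peaks around its 30 genes, 48.4% were higher and 11.4% lower (over all tested, 32.6% and 25.0%). The median peak of the list changed by 0.66 (log2), against -0.01. At promoters, 33 of 96 peaks were higher and 11 lower, where 15.6% and 15.7% of all promoter peaks were. Outside promoters, 52.8% of 299 peaks were higher and 11.4% lower, against 37.0% and 27.5% of all such peaks. Of 28 genes with a tested transcript, 23 rose and 1 fell (31.5% and 30.6% of all genes). Krt8 and Krt18, keratins of simple epithelium, share a locus with 15 of 23 peaks higher and 0 lower. Elf3, an epithelial ETS factor, had 6 of 9 and 0. Foxa3, at which 1 of 17 peaks was higher and 6 lower, is an exception, since its transcript rose by 3.86, and Apela, a peptide hormone, had 4 higher and 3 lower of 10 with a transcript fall of 3.46.

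Of 353 peaks around the 25 pluripotency genes, 27.2% were higher and 35.4% lower, and the median was -0.34. Of its transcripts 20 of 24 fell and 3 rose, Sall4 by 1.93 and Fgf5 by 2.91 among them. Tdgf1, a Nodal coreceptor, had 0 higher and 7 lower of 13 peaks, and Dnmt3a 6 and 16 of 33. Foxd3, a forkhead repressor, had 1 and 4 of 6 with a locus median of -2.21. Dppa4 went the other way, with 3 of 4 peaks higher and 0 lower while its transcript fell. The naive pluripotency list had 33.6% higher and 32.8% lower of 116. Esrrb, a nuclear receptor of naive cells, had 13 of 20 peaks higher and 3 lower with a transcript log2 change of -0.02 (edgeR adjusted p = 0.971).

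Neuroectoderm genes had 22.3% higher and 32.2% lower of 264 peaks, with a median of -0.32. Nes, an intermediate filament of neural progenitors, had 3 higher and 14 lower of 26 peaks. Streak and mesoderm genes had 26.5% and 19.1% of 324, and visceral endoderm genes 37.3% and 26.3% of 118. Genes of later gut organs had 31.6% and 28.3% of 212, with 0 higher and 6 lower of 9 at Nkx2-1, a factor of thyroid and lung, and 7 and 0 of 14 at Tbx1, a pharyngeal factor. Feeder fibroblast genes had 30.1% and 31.4% of 156, while 13 of 15 of their transcripts fell and 0 rose. Housekeeping genes had the lowest share called, 43.7% of 268, with 16.0% higher and 27.6% lower. Of these 268 peaks, 122 lay at promoters, where 31.4% of all promoter peaks were called. Outside promoters, 23.3% of 146 were higher and 32.9% lower, against 37.0% and 27.5% of all such peaks.

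Of the signalling lists, BMP had the highest share of higher peaks, but not with at least 10 counts in every library. In the Nodal and Activin pathway, 31.1% of 264 peaks were higher and 21.6% lower. Among its ligands, Nodal, Lefty1 and Lefty2 had more higher than lower peaks (Lefty2 11 and 4 of 23), while the Activin subunit gene Inhba had 0 and 1 of 6. Of the receptors, Acvr1b had 13 and 4 of 32 and Acvr2a 0 and 0 of 8. Of the effectors, Smad2 had 9 and 0 of 12, with a transcript log2 change of 0.12 (edgeR adjusted p = 0.483). The inhibitors Skil and Fst had 1 and 5 of 9 and 0 and 3 of 6.

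BMP genes had 39.1% higher and 20.5% lower of 297 peaks. With at least 10 counts in every library these shares were 22.8% and 18.7% of 123, where 9868 peaks were higher and 8144 lower of all 44872 tested. Under that filter BMP had the lowest share of higher peaks of the signalling lists (Nodal and Activin 26.0%, Wnt 25.7%, FGF 26.4%). Of the BMP transcripts, 6 rose and 7 fell of 19. The ligand genes Bmp2 (7 and 1 of 12) and Bmp7 (17 and 3 of 30) and the effector Smad1 (10 and 1 of 15) leaned to opening, and their transcripts rose by 4.27, 3.32 and 3.81. The effector Smad5 (9 and 2 of 21) and the receptor Bmpr2 (5 and 0 of 12) also had more higher peaks, while their transcripts changed by -0.95 and -1.44. Bmpr1b, a receptor, had 7 and 11 of 23, and Chrd, an antagonist, 4 and 8 of 17. In the Wnt list, 35.4% of 413 were higher and 23.0% lower. The secreted antagonists Sfrp1 (11 and 1 of 13) and Frzb (6 and 0 of 10) and the factor Tcf7l2 (14 and 7 of 34) opened more than they closed, and Lef1 (7 and 12 of 29) and Sp8 (0 and 6 of 13) did the reverse. FGF genes had 32.4% and 23.8% of 256, with 21 and 2 of 24 at the receptor Fgfr2, 0 and 9 of 20 at the ligand Fgf17 and 2 and 7 of 15 at the feedback inhibitor Spry2.

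These list shares are counts around genes chosen with earlier results of these data known, and neighbours such as Krt8 and Krt18 share peaks. With total library size, the share of higher among called peaks moved from 80.9% to 71.7% for endoderm, from 43.4% to 33.0% for pluripotency and from 36.8% to 27.1% for housekeeping genes. It moved from 59.0% to 46.2% for the Nodal, from 57.6% to 46.9% for the FGF and from 58.1% to 46.4% for the streak and mesoderm list. The side with more calls changed for these lists, and also for later gut organs (52.8% to 43.2%) and naive pluripotency (50.6% to 46.8%).

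**Figure D5:**
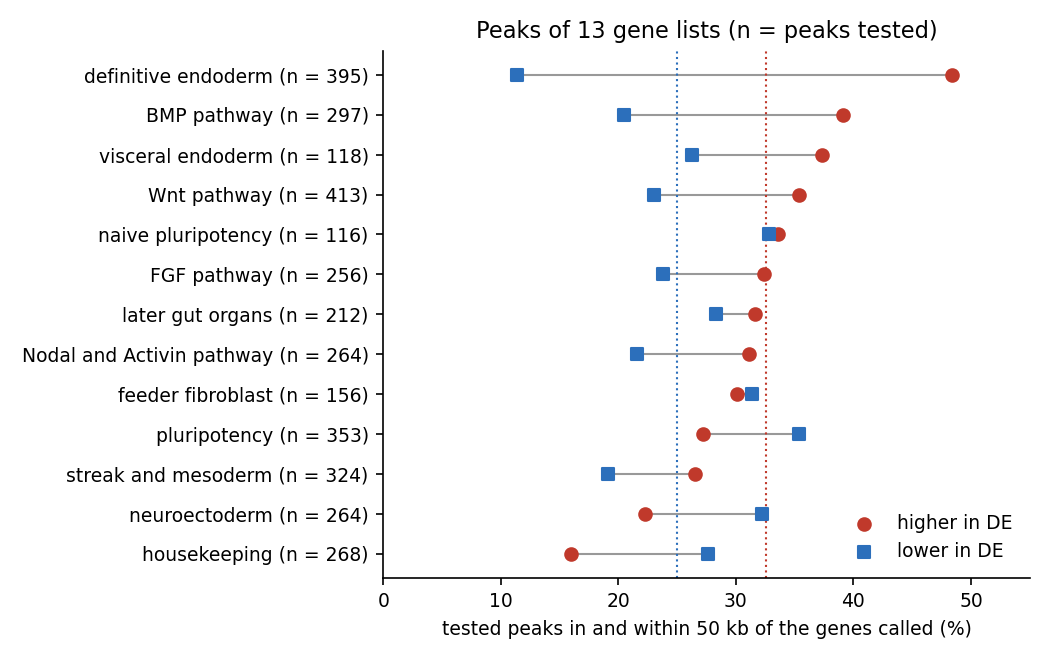
Share of tested peaks in and within 50 kb of the genes of 13 lists that were called higher (circles) or lower (squares) in DE, in percent, with dotted lines at the shares over all peaks (32.6% and 25.0%). The definitive endoderm list has the highest share of higher peaks, 48.4%, and the lowest share of lower ones, 11.4%, and the pluripotency list the highest share of lower ones, 35.4% (fit with TMM).

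Peaks of 1 direction lay next to each other. The next peak within 10 kb of a higher peak was higher in 42.4%, against 31.3% of all peaks with a neighbour at that distance. For lower peaks, the next was lower in 31.5% against 23.5%. Runs of at least 5 consecutive tested peaks called in 1 direction numbered 762 for higher and 229 for lower, and runs of at least 10 numbered 36 and 1. Higher peaks were also more frequent (32.6% against 25.0% of all tested). No expected number of runs was worked out, so these counts do not compare the directions on a like base. The longest had 18 higher peaks over 234 kb (chr2:103138766-103372882) with Ehf, an ETS factor of epithelia, as the protein-coding gene in it. Its peaks changed by 0.96 to 5.61, and the Ehf transcript rose by 3.98 (SE 0.74, edgeR adjusted p = 0.000933).

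Next came 17 higher peaks over 162 kb at Efna5, an ephrin ligand (chr17:62701038-62863379), and 14 each at Kif26b (chr1:178592684-178708028) and Fgfr2 (chr7:130117524-130212007). The Fgfr2 transcript rose by 3.29 (SE 0.29) and that of Efna5 by 0.91 (SE 0.25), while Kif26b, at 0.94 (SE 0.42), had an edgeR adjusted p of 0.0774. A run of 13 without a protein-coding gene (chr1:127003468-127201441) lay 3.48 kb from Mgat5, an enzyme of N-glycan branching. Lower runs held fewer peaks, where lower peaks were also less frequent. The longest had 10 peaks within 37.6 kb (chr13:21222522-21260077), 26.4 kb from Gpx5, and 9 lay in 49.3 kb of chromosome 13 next to the histone gene H4bc24 (chr13:21847967-21897248). A further 9 spread over 345 kb at Anks1b, whose transcript went from 3.16 to 0.178 CPM, and 9 over 308 kb at Ccn3 and Enpp2. The last, also of 9, covered 124 kb at Snx30, Slc46a2 and Mup4 (chr4:59874048-59998244), and the Snx30 transcript fell by 0.91. Enpp2, the enzyme that makes lysophosphatidic acid, had 81.3 CPM of transcript in EpiSCs and 0.0704 CPM in DE.

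The peaks with the smallest p showed near on and off states. The first on the opening side was an intergenic region 0.298 kb from Manbal (chr2:157397061-157397793), with 3.36, 4.81, 4.59 and 2.79 CPM in EpiSCs and 71.8, 73.7, 59.1 and 70.6 CPM in DE. It changed by 4.13 (SE 0.19, edgeR adjusted p = 2.98e-11). Others lay in Myo16 (chr8:10393540-10393994, 5.05), at Gm32050 (chr8:26629023-26629661, 4.59), in Disc1 (chr8:125235673-125236294, 3.68) and in Plekhm3 (chr1:64811516-64812100, 4.49). Of the 3 on chromosome 8, DE replicate 51 was the highest at Gm32050, with 106 CPM against 61.7 to 75.1, and at Disc1, with 91.4 CPM.

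On the closing side, the first was in Vps13d (chr4:145104961-145105319), with 48.0, 50.2, 53.8 and 76.4 CPM in EpiSCs and 1.44, 1.65, 0.572 and 1.15 CPM in DE, a change of -5.58 (SE 0.26, edgeR adjusted p = 2.98e-11). The next were intergenic at 205 kb from Tmprss15 (chr16:79296512-79296931, -5.12) and 84.2 kb from Cyria (chr12:12177319-12177910, -4.23). Astn2 (chr4:66330601-66330962, -4.82), a neuronal adhesion gene, and Gm36865 (chr7:72774439-72774858, -4.79) held the others. EpiSC replicate 51 was the highest EpiSC library in 4 of these 5, and DE stayed at or below 4.12 CPM in all of them.

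Transcript changes went with the balance of the peaks around a gene. For 13358 genes with a tested transcript and at least 1 tested peak outside promoters in the gene or within 50 kb, the number of lower peaks was taken from the number of higher ones. The 399 genes with 5 or more net lower peaks had a median transcript log2 change of -0.81. In DE replicates 2, 4, 44 and 51, each against the EpiSC mean, that median was -0.92, -0.61, -0.75 and -0.65, below 0 in 4 of 4. Of these genes, 50.9% fell and 19.3% rose, against 30.6% and 31.8% of the 13358. The 1188 genes with 5 or more net higher peaks had a median of 0.33, and 0.15, 0.44, 0.31 and 0.29 in the DE libraries, with 40.7% up and 25.3% down. Genes with as many higher as lower peaks had a median of -0.02.

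The medians in between were -0.31 for 3 to 4 net lower peaks, -0.08 for 1 to 2, 0.05 for 1 to 2 net higher and 0.14 for 3 to 4. Single genes ranged widely, with the middle 50% from -2.25 to 0.39 in the lowest class and from -0.84 to 1.50 in the highest. The lowest class had a median of -1.30 with a window of 10 kb (85 genes) and -0.50 with total library size in the peak fit (935 genes). Genes are not independent here, since neighbours share peaks.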

How the data were processed

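The authors deposited raw counts of ATAC-seq fragments per peak for 8 libraries and of RNA-seq reads per gene for the same 2 states (5 EpiSC, 4 DE). Per the submitters' processing notes, fastp, Bowtie2, MACS2, featureCounts, Salmon and DESeq2 were used with build mm10; versions are not given in the sources used here, nor is how the common peak set was made. Counts were fitted with edgeR 4.0.16 in R 4.3.3 (TMM, filterByExpr, robust quasi-likelihood, groups only), with p-values adjusted over all peaks or genes tested (threshold 0.05), and the fit was tested on simulated data. limma 3.58.1 gave loess offsets and DESeq2 1.42.0 was an alternative. CPM use TMM library sizes. Gene positions, starts and promoter sequences are from RefSeq (GRCm38.p6). A promoter peak lies within 1 kb of a start, or of either end of 4405 protein-coding genes with no start in that table. ATAC-seq libraries held 3751526 to 9311622 counts and RNA-seq libraries 22829536 to 66563933. Named were 28 genes, the most significant peak of each within 50 kb, the 5 peaks with the smallest p and the 5 longest runs in each direction; list genes named beside them were chosen after their values were seen. The members and the 13 lists were chosen with earlier results of these data known. Alternatives were other scalings and filters, leaving out each library, other windows and a replicate block. The peak table of other strains was not used here. Of the log2 changes, those of peaks at or under 3 counts in each library of 1 state depend on the prior count. A few genes of the panel and lists are counted in the totals but not reported here by name.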

Additional observations from a re-analysis of the deposited data

Results flagged for a closer look

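In 68 groups of 4 libraries, 1 library stood apart by Dixon's ratio in 2 cases, and chance gives about 1 in 20 groups. At the Utf1 start, EpiSC replicate 51 had 26.3 CPM and the other EpiSC libraries 17.4 to 18.7 CPM. At Lefty1, DE replicate 4 had 147 CPM and the other DE libraries 115 to 118 CPM, all above the highest EpiSC library at 18.9 CPM.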

How the results depend on the processing

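Leaving out 1 library at a time gave 33748 to 40472 peaks higher and 29747 to 36781 lower in DE, 2598 to 3383 promoter peaks higher and 3740 to 5821 lower (the last without EpiSC replicate 51), 175 to 196 endoderm locus peaks higher and 122 to 146 pluripotency locus peaks lower. With at least 10 counts in every library, 44872 peaks were tested and 9868 were higher and 8144 lower, with 2257 and 2090 at promoters, 73 higher at endoderm loci and 46 lower at pluripotency loci. Promoter counts moved to 2405 higher and 6223 lower with total library size, to 5869 lower with loess offsets, and to 2144 and 2186 when a 2-fold change was also required. With windows of 10 kb, 93 endoderm locus peaks were higher and 71 pluripotency locus peaks lower. With nuclear peaks alone in the total, the share of counts differed by -4.72 points for promoters, 3.43 for gene bodies, 1.29 for intergenic peaks and -0.167 for the X chromosome. The transcript median of genes with 5 or more net lower peaks was -1.30 with a 10 kb window and -0.50 with total library size. The cause of these differences between fits was not tested. No pairing by shared replicate number was seen (correlations of same-numbered deviations 0.047, -0.013 and 0.028, against -0.051 to 0.05 for differently numbered ones). Whether a shared number means the same line in both states cannot be told from these values. The replicate block over the 6 libraries numbered 4, 44 and 51 gave 32883 higher and 21504 lower peaks and 2208 higher promoter peaks, against 35207, 26136 and 2446 in those libraries without it. At the starts of the named genes, 274 of 312 values under an alternative kept direction and call, 17 lost and 14 gained the call and 7 changed sign. Those were Eomes with the block (-0.02), and Dnmt3b with total library size (-0.12) and without 1 of 5 libraries (-0.11, -0.07, -0.06, -0.04 and -0.03, within a range of -0.11 to 0.15 over all 8). Promoter counts with the starts of the RefSeq table alone, an alternative chosen after seeing the data, were 3074 higher and 3042 lower.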

Other observations

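Peaks on the Y chromosome took 0.0957% to 0.153% of the counts in the EpiSC libraries and 0.0175% to 0.0646% in the DE libraries. Of 44 tested Y peaks, 2 were higher in DE (4.55%, against 32.6% of all peaks tested) and 14 lower (31.8%, against 25.0%).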
